A study of Mus musculus with 14 samples.

Results

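The collagen genes are described here in the triceps of FLExDUX4 and WT mice with and without wheel running. They were taken as every gene whose symbol is Col followed by a number, the letter a and a number, which gave 44 of the 52550 genes in the count table. The rule itself reads the symbol alone. Of the 44 genes, 25 had enough reads to be among the 11088 genes tested for differences between groups. The study profiled triceps RNA from 14 male mice by 3′-end sequencing (QuantSeq), which reads near the 3′ end of each transcript. By its title it asked what aerobic exercise does to the deficits of a mouse model of facioscapulohumeral muscular dystrophy. The FLExDUX4 model carries a floxed, inverted human DUX4 transgene that Cre recombinase turns into the coding direction, and the labels name no Cre driver. The mice were 4 FLExDUX4 runners and 4 WT runners, each with 6 weeks of voluntary access to a wheel, and 3 FLExDUX4 controls and 3 WT controls without running. The WT mice were littermates of the FLExDUX4 mice, and the labels give no age. The DUX4 transgene was not analysed here, so the genotype labels were taken as given.

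Collagens are secreted or membrane proteins built of 3 chains wound into a triple helix. Fibrillar types I, III and V form the tensile fibres of the muscle's connective tissue, type IV forms the sheet of the basement membrane around each fibre and capillary, and type VI links that sheet to the surrounding matrix. In skeletal muscle most fibrillar chains come from fibroblasts and related interstitial cells, while type IV chains are also made by endothelial cells and muscle fibres. Deposition of fibrillar collagen, or fibrosis, is a feature of advanced muscular dystrophy.

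Gene totals ran from 3269357 reads in WT control 3 to 6995811 in FLExDUX4 control 3, and levels are given as CPM, read counts brought to a common library size after TMM scaling. At these depths 1 CPM stood for 3.32 to 7.77 reads. Because a 3′ library counts about the same stretch of each transcript, CPM was not divided by transcript length. In whole muscle, fewer cells of a type and less RNA per cell cannot be told apart. A library that stood apart for these genes was WT control 1, in which collagens took 0.105% of gene counts, against 0.0528% to 0.0798% in the other 13 mice.

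No collagen passed the test in any of 7 comparisons. The family was dominated by a few genes. Col1a2 alone held 29.1% of all collagen reads, Col3a1 17.6%, Col1a1 12.6%, Col4a1 9.44% and Col4a2 4.63%. By class, the 11 fibrillar genes held 65.7% of collagen reads, the 6 basement membrane genes 15%, and the 6 beaded filament genes, which encode type VI, 11.4%. The multiplexins Col15a1 and Col18a1 held 3.06%, the 9 fibril-associated genes 2.94% and the 3 network-forming genes 1.34%. The marker genes Col1a1, Col3a1 and Col4a1 were present in all 14 libraries.

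The collagens summed to 546, 593 and 974 CPM in WT controls, 550, 644, 663 and 686 CPM in WT runners, 579, 665 and 668 CPM in FLExDUX4 controls, and 615, 638, 646 and 878 CPM in FLExDUX4 runners. Every group therefore overlapped every other, and the highest values came from WT control 1 and FLExDUX4 running 2. The make-up of the family was less even. Fibrillar genes took 66%, 67.9% and 71.5% of collagen reads in WT controls but 58.9%, 60.2%, 63% and 63.5% in WT runners. The 4 WT runners lay wholly below the WT controls and also below the FLExDUX4 runners, at 65.3% to 69.3%, and overlapped the FLExDUX4 controls, at 63.1% to 71.8%. Basement membrane genes took 18.5% ± 4.25 (SD, n = 4) in WT runners, 13.3% ± 2.1 (n = 3) in WT controls, 14.9% ± 1.61 (n = 4) in FLExDUX4 runners and 12.4% ± 1.71 (n = 3) in FLExDUX4 controls. WT runners 1 and 2, at 20.6% and 22.9%, were the highest mice of all 14, while WT running 3 at 13.1% lay within the WT controls. These shares are a description and carry no test, and in a share a high class lowers the others.

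**Figure D1:**
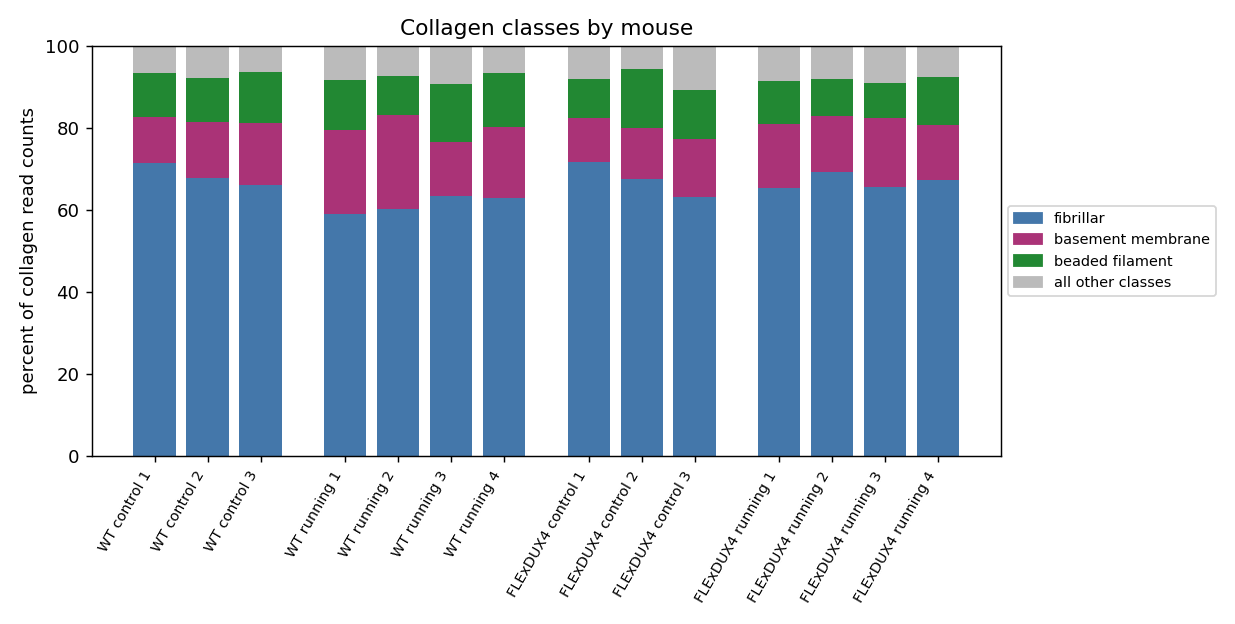
Percent of each mouse's collagen reads (y axis) held by fibrillar, basement membrane, beaded filament and all other collagen classes, with 1 bar per mouse. The fibrillar part of the bars lies between 58.9% and 63.5% in the 4 WT runners and between 66% and 71.5% in the 3 WT controls.

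Type I collagen, the main tensile fibre, is made of chains from Col1a1 and Col1a2. Col1a1 stood at 112, 71.5 and 63.8 CPM in WT controls and at 72.2, 74.9, 70 and 68 CPM in WT runners. In FLExDUX4 mice it stood at 120, 81.8 and 81.6 CPM in controls and at 82, 137, 97.6 and 68.3 CPM in runners. The groups overlapped, and WT runners were the tightest group at 71.3 ± 2.99 CPM (SD, n = 4). Col1a2 stood at 264, 193 and 159 CPM in WT controls, and at 171, 175, 166 and 168 CPM in WT runners. FLExDUX4 controls had 241, 185 and 173 CPM of Col1a2, and FLExDUX4 runners 178, 254, 199 and 204 CPM. The lowest FLExDUX4 runner, at 178 CPM, lay just above the highest WT runner, at 175 CPM, so that only this pair of groups was separate. Col1a2 averaged 2.32 ± 0.291 times the CPM of Col1a1 over the 14 mice, with a range of 1.85 to 2.98.

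Col3a1, the second fibrillar collagen of connective tissue, was the most variable of the abundant chains. It stood at 255, 103 and 104 CPM in WT controls, at 90.6, 126, 140 and 80.7 CPM in WT runners, at 92.5, 128 and 69.3 CPM in FLExDUX4 controls, and at 121, 173, 84.6 and 95.9 CPM in FLExDUX4 runners. All groups overlapped, and WT control 1 was far above every other mouse. Its FLExDUX4 minus WT log2 difference in controls was -0.68 ± 0.42 (SE) and came to -0.11 without WT control 1. The 250 bases before the RefSeq start of Col3a1, on mouse build GRCm38.p6 at chr1:45311288-45311537 on the plus strand, are shown because they contrast with those of Col8a1, given with that gene. Capitals mark the TATA box letters TATAAA, the CCAAT box and the GC box letters GGGCGG, each searched on both strands, and no matches overlap.
Col3a1: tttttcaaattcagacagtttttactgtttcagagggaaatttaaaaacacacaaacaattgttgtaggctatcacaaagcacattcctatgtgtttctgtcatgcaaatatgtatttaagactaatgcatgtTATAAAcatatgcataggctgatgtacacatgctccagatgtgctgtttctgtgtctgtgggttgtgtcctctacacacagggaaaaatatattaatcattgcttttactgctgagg
The window held 1 TATAAA and neither of the other motifs, and 35.2% of its bases were G or C.

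The type V chains, which take part in starting type I fibrils, were lower. Col5a1 averaged 15.8 ± 2.84 CPM in WT controls, 10.8 ± 2.1 in WT runners, 11.4 ± 4.52 in FLExDUX4 controls and 12.8 ± 3.28 in FLExDUX4 runners. Col5a2 averaged between 12.1 and 13.9 CPM in the 4 groups. Col5a3 stood at 19.4, 9.29 and 6.92 CPM in WT controls and at 1.65, 10.7 and 6.95 CPM in FLExDUX4 controls, groups that overlapped. Col11a1, a minor fibrillar chain best known from cartilage, was near the lower limit of the test. It had 6, 3 and 0 reads in WT controls and 14, 9 and 22 in FLExDUX4 controls, or 0.637 ± 0.631 and 2.97 ± 0.808 CPM. These groups did not overlap. Col24a1 and Col27a1 averaged 1.33 and 1.49 CPM over all mice.

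**Figure D2:**
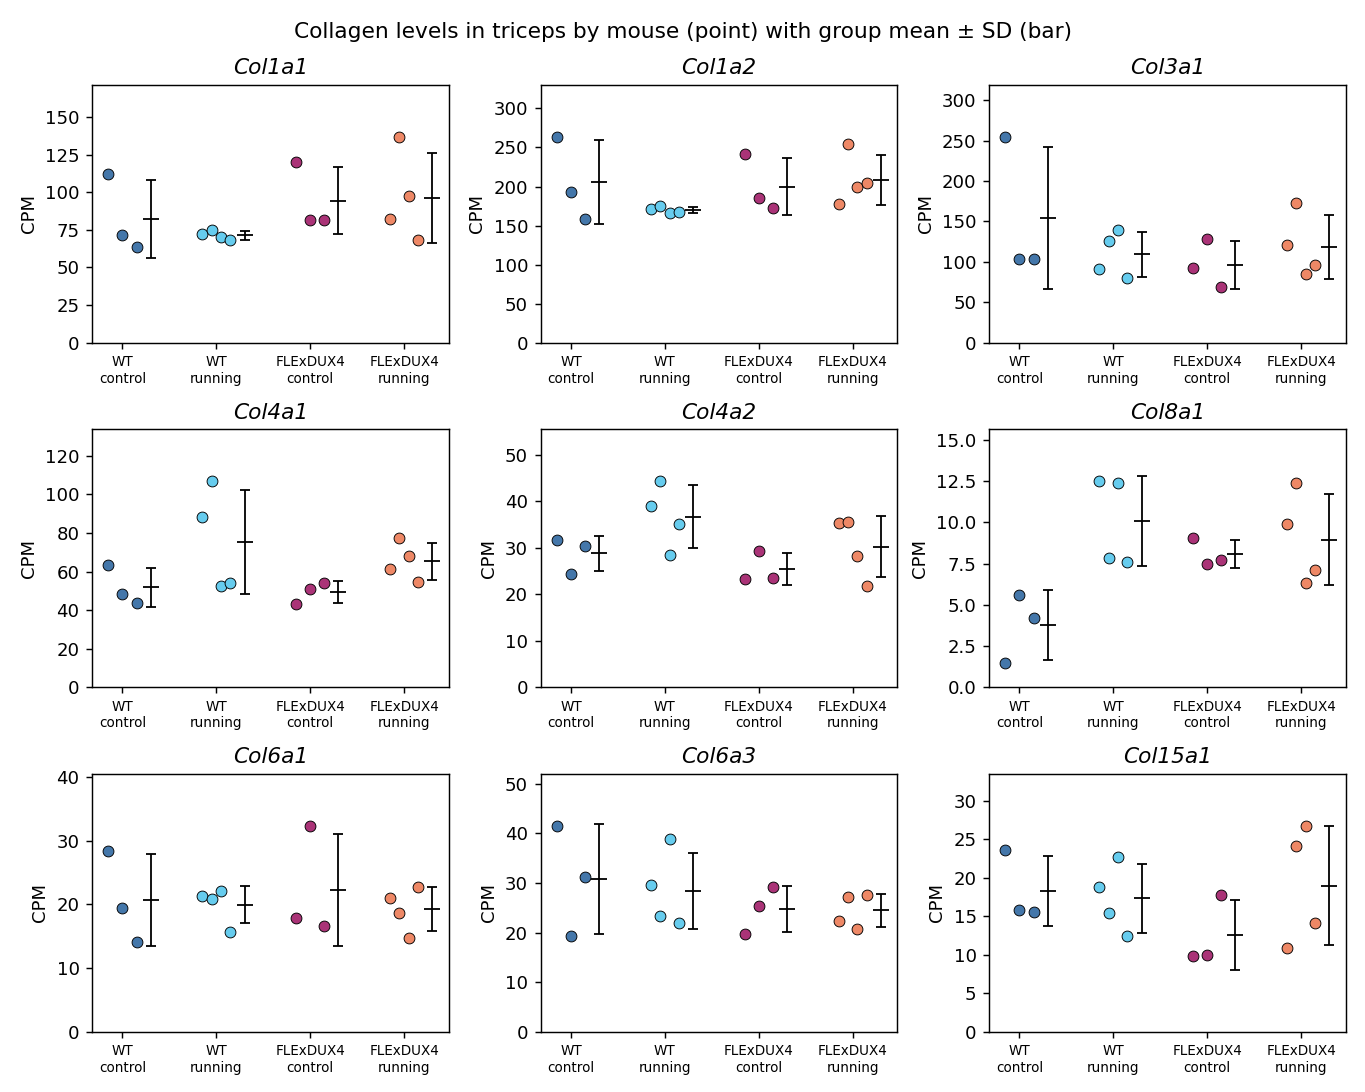
CPM (y axis, from 0) of 9 collagen genes by mouse (points) in the 4 groups, with the group mean and SD (bars). Col8a1 in the 3 WT controls, at 1.47 to 5.62 CPM, lies below all 4 WT runners, at 7.61 to 12.5 CPM, while the type I and type III genes overlap between these groups.

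Basement membrane type IV in muscle is mainly made of the Col4a1 and Col4a2 chains. Col4a1 stood at 63.3, 48.4 and 43.6 CPM in WT controls and at 88.1, 107, 52.4 and 54 CPM in WT runners. It stood at 43.3, 51.1 and 54.3 CPM in FLExDUX4 controls and at 61.2, 77.2, 68 and 54.6 CPM in FLExDUX4 runners. Runners of FLExDUX4 mice lay wholly above their controls, by a margin of 54.6 against 54.3 CPM, and WT runners overlapped WT controls, since WT control 1 lay above WT runners 3 and 4, which in turn lay above the other WT controls. Col4a2 stood at 31.6, 24.4 and 30.4 CPM in WT controls and at 39, 44.4, 28.4 and 35.2 CPM in WT runners. FLExDUX4 controls had 23.3, 29.4 and 23.5 CPM of Col4a2 and FLExDUX4 runners 35.4, 35.5, 28.3 and 21.8 CPM. Here both pairs of groups overlapped.

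Col4a1 and Col4a2 lie head to head on chromosome 8. On GRCm38, Col4a1 spans 11198423 to 11312826 on the minus strand and Col4a2 spans 11312805 to 11449287 on the plus strand, so that their first exons overlap by 22 bases and their first bases are 21 apart. The other type IV genes lie in pairs of the same kind, Col4a4 with Col4a3, 71 bases apart on chromosome 1, and Col4a6 with Col4a5, 1.31 kb apart on the X chromosome. Reads here come from the 3′ ends, which are at the far side of each gene, and no exon of another gene lay on the last 1000 bases of a tested collagen. Col4a1 averaged 2.01 ± 0.339 times the CPM of Col4a2 over the 14 mice, with a range of 1.44 to 2.5. Col4a4, a chain best known from the kidney filter, averaged 4.09 CPM. Col4a5, Col4a3 and Col4a6 were below the test, with 94, 69 and 10 reads in all libraries together.

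Type VIII collagen is a short-chain collagen made by endothelial and vascular smooth muscle cells, and Col8a1 was the only tested network-forming gene. It stood at 1.47, 5.62 and 4.21 CPM in WT controls, which were 7, 26 and 14 reads, and at 12.5, 7.81, 12.4 and 7.61 CPM in WT runners, which were 63, 44, 61 and 43 reads. FLExDUX4 controls had 9.05, 7.48 and 7.72 CPM and FLExDUX4 runners 9.91, 12.4, 6.32 and 7.13 CPM. The 3 WT controls were the lowest of all 14 mice, and the other 3 groups overlapped each other. The upstream sequence of Col8a1 is shown because this gene had the smallest p of the family when runners and controls were compared in WT mice. It covers 250 bases before the RefSeq start at chr16:57754738-57754987 on the minus strand of GRCm38.p6, and is printed in the direction of the gene with the same motifs in capitals.
Col8a1: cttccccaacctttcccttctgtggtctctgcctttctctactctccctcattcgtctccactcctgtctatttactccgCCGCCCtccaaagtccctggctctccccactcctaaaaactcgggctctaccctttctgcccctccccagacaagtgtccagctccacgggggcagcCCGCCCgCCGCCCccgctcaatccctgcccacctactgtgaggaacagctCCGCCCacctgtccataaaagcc
It held 4 matches of GGGCGG, all on the opposite strand and so written CCGCCC, no TATAAA and no CCAAT, and 60.8% of its bases were G or C, against 35.2% in Col3a1. RefSeq windows were found for 35 of the 44 collagens, in 38 windows. TATAAA was in 5 of these and in 12.4% of all 32851 mouse windows, CCAAT was in 13 and in 33.8%, and GGGCGG was in 22 and in 32.7%. There was no entry for Col1a1, Col2a1, Col4a3, Col5a2, Col9a3, Col12a1, Col14a1, Col22a1 or Col26a1. A match is a description of letters and not of a bound site.

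The beaded filament collagen type VI, whose loss causes muscle disease in humans, has Col6a1, Col6a2 and Col6a3 as its main chains. Col6a3 averaged 30.8 ± 11.1 CPM in WT controls (n = 3), 28.4 ± 7.69 in WT runners (n = 4), 24.8 ± 4.7 in FLExDUX4 controls (n = 3) and 24.5 ± 3.4 in FLExDUX4 runners (n = 4). Col6a1 averaged between 19.3 and 22.3 CPM and Col6a2 between 22.1 and 24.9 CPM in the 4 groups, so these chains were close to equal in read number. The mean CPM of Col6a2 was 1.17 ± 0.262 times that of Col6a1. Col6a6, an alternative chain, stood at 4.12, 6.98 and 5.02 CPM in FLExDUX4 controls and at 0.778, 4.58, 1.81 and 3.14 CPM in FLExDUX4 runners, which overlapped. Col6a5 had 6 reads in all and Col6a4 none.

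The multiplexin Col15a1, found in the basement membrane zone of muscle and capillaries, stood at 9.88, 9.97 and 17.8 CPM in FLExDUX4 controls and at 10.9, 24.2, 26.8 and 14.1 CPM in FLExDUX4 runners. It averaged 18.3 ± 4.53 CPM in WT controls and 17.3 ± 4.45 in WT runners, and all groups overlapped. Col18a1, the precursor of endostatin, averaged between 2.66 and 3.68 CPM in the 4 groups. Of the fibril-associated genes, which encode collagens on the surface of larger fibrils, Col14a1 averaged 8.95 CPM, Col22a1 of the myotendinous junction 4.1 CPM, Col12a1 1.99 CPM, Col19a1 1.56 CPM and Col16a1 1.41 CPM. The transmembrane gene Col23a1 averaged 1.12 CPM.

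The 19 untested collagens had few reads. Col7a1, which makes the anchoring fibrils of skin, had 98 reads, of which 55 were in FLExDUX4 control 3 and 24 in WT control 1. All 7 reads of Col9a3, a cartilage collagen, were in FLExDUX4 control 3. Col11a2 had 62 reads, Col8a2 58, Col13a1 55, Col9a1 38, Col20a1 34, Col25a1 22, Col26a1 12 and Col9a2 8. Col2a1, the main cartilage collagen, had 1 read, as had Col10a1, and Col17a1 had 2. Col28a1 and Col6a4 had no reads in any library. Col4a5 stood at 5.89, 1.94 and 1.2 CPM in WT controls, or 28, 9 and 4 reads, and at 1.39, 0.355, 0.609 and 0 CPM in WT runners, groups that overlapped. These 19 genes were not tested here.

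Running was compared with no running within each genotype and averaged over genotypes, in edgeR's quasi-likelihood test with Benjamini-Hochberg adjustment over 11088 genes. In WT mice, 0 of 25 collagens passed an adjusted p of 0.05, where 0.496% of all tested genes did. At an unadjusted p under 0.05 there were 2 collagens, against 10.7% of all genes, and 0 collagens were called by limma-voom, which called 0.207% of genes, or by DESeq2, which gave an adjusted p to 11 collagens and called 3.67% of genes. The collagen with the smallest p was Col8a1, at a log2 difference of 1.42 ± 0.40 (SE) in runners minus controls and an adjusted p of 0.0949. It was the 1 collagen with an adjusted p under 0.10, where 1.34% of all genes had one. Runners lay wholly above controls for Col8a1 and Col11a1, or 2 of 25 collagens, where 5.74% of all genes did so, and no collagen lay wholly below, where 4.56% did. Without WT control 1 the Col8a1 difference was 1.01, at an adjusted p of 0.45.

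Col4a1 differed by 0.54 ± 0.21 between WT runners and controls (adjusted p = 0.299) and Col4a2 by 0.35 ± 0.21 (adjusted p = 0.584). Without WT running 2 the Col4a1 value was 0.32. Col5a1 had a difference of -0.54 ± 0.30 (adjusted p = 0.549) and Col1a2 of -0.28 ± 0.16 (adjusted p = 0.56), the latter turning to 0.09 when library sizes came from spike-ins. That Col1a2 value was -0.06 without WT control 1 and -0.43 without WT control 3. Col1a1 had a difference of -0.21 ± 0.21 (adjusted p = 0.819), and its sign changed to 0.16 with spike-in library sizes and to 0.07 without WT control 1, and it was -0.36 without WT control 3. Over the 25 collagens, 9 were higher in WT runners and the median log2 difference was -0.10, against 0.01 over all tested genes, and with spike-in library sizes these medians were 0.29 and 0.38. Of the 9 tested fibrillar genes 2 were higher, with a median of -0.28 that turned to 0.09 with spike-in library sizes, and of the 3 basement membrane genes 2 were higher, with a median of 0.35 (0.73 with spike-in library sizes).

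In FLExDUX4 mice, 0 of 25 collagens and 0% of all genes passed the test. At an unadjusted p under 0.05 there was 1 collagen, against 6.66% of all genes, and DESeq2 and limma-voom called 0. Col6a6 had the smallest p, at -1.06 ± 0.52 (adjusted p = 0.748), followed by Col4a1 at 0.39 ± 0.21 (adjusted p = 0.798) and Col15a1 at 0.55 ± 0.30 (adjusted p = 0.804). The Col15a1 value was 0.34 without FLExDUX4 running 3 and 0.91 without FLExDUX4 control 3. Col4a1 lay wholly above in runners, as did 3.72% of all genes, and Col24a1 wholly below, as did 3.45%. Col4a2 differed by 0.25 ± 0.21 (adjusted p = 0.888) and Col8a1 by 0.14 ± 0.37 (adjusted p = 0.974), and with each mouse left out these ranged from 0.16 to 0.38 and from -0.04 to 0.27. The median over 25 collagens was 0.06, with 15 higher in runners, and all 3 basement membrane genes were higher, with a median of 0.39.

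Averaged over genotypes, 0 of 25 collagens passed, against 0.857% of all genes. At an unadjusted p under 0.05 there were 3 collagens, against 12% of all genes. DESeq2, which gave an adjusted p to 12 collagens, called 0 of them and 4.96% of genes, and limma-voom called 0 and 0.631%. Col4a1 had a runner minus control difference of 0.46 ± 0.15, with a 95% interval of 0.16 to 0.76 and an adjusted p of 0.124. Col8a1 followed at 0.78 ± 0.28 (adjusted p = 0.17) and Col4a2 at 0.30 ± 0.15 (adjusted p = 0.417). Col4a1 passed at an adjusted p of 0.0331 without WT running 3, where 2.18% of all genes passed, at 0.0213 with no low-count filter, where 1.39% did, and at 0.0112 with spike-in library sizes, where 4.09% did. Under the other 21 alternatives tried it did not. The 95% interval was -0.39 to 0.20 for Col1a1 and -0.33 to 0.12 for Col1a2, whose values of -0.09 and -0.11 changed sign to 0.12 and 0.10 with spike-in library sizes. Col3a1 stood at -0.10 ± 0.27 (adjusted p = 0.941) and at 0.09 with that scaling, and ranged from -0.22 to 0.19 with each mouse left out. Of 9 fibrillar genes 3 were higher in runners, with a median of -0.10 that turned to 0.10 with spike-in library sizes, and all 3 basement membrane genes were higher, with a median of 0.30.

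The spike-in scaling brought the median of all genes from 0.01 to 0.38 in the WT running comparison and to 0.22 in the average, so its values contain that shift. Relative to those medians, Col4a1 stood at 0.53 in WT and 0.45 on average, Col8a1 at 1.41 and 0.77, and Col4a2 at 0.35 in WT. With this scaling 3 collagens, Col4a1, Col4a2 and Col8a1, passed the test in WT mice, where 5.8% of all genes did, and 2, Col4a1 and Col8a1, in the average, where 4.09% did.

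**Figure D3:**
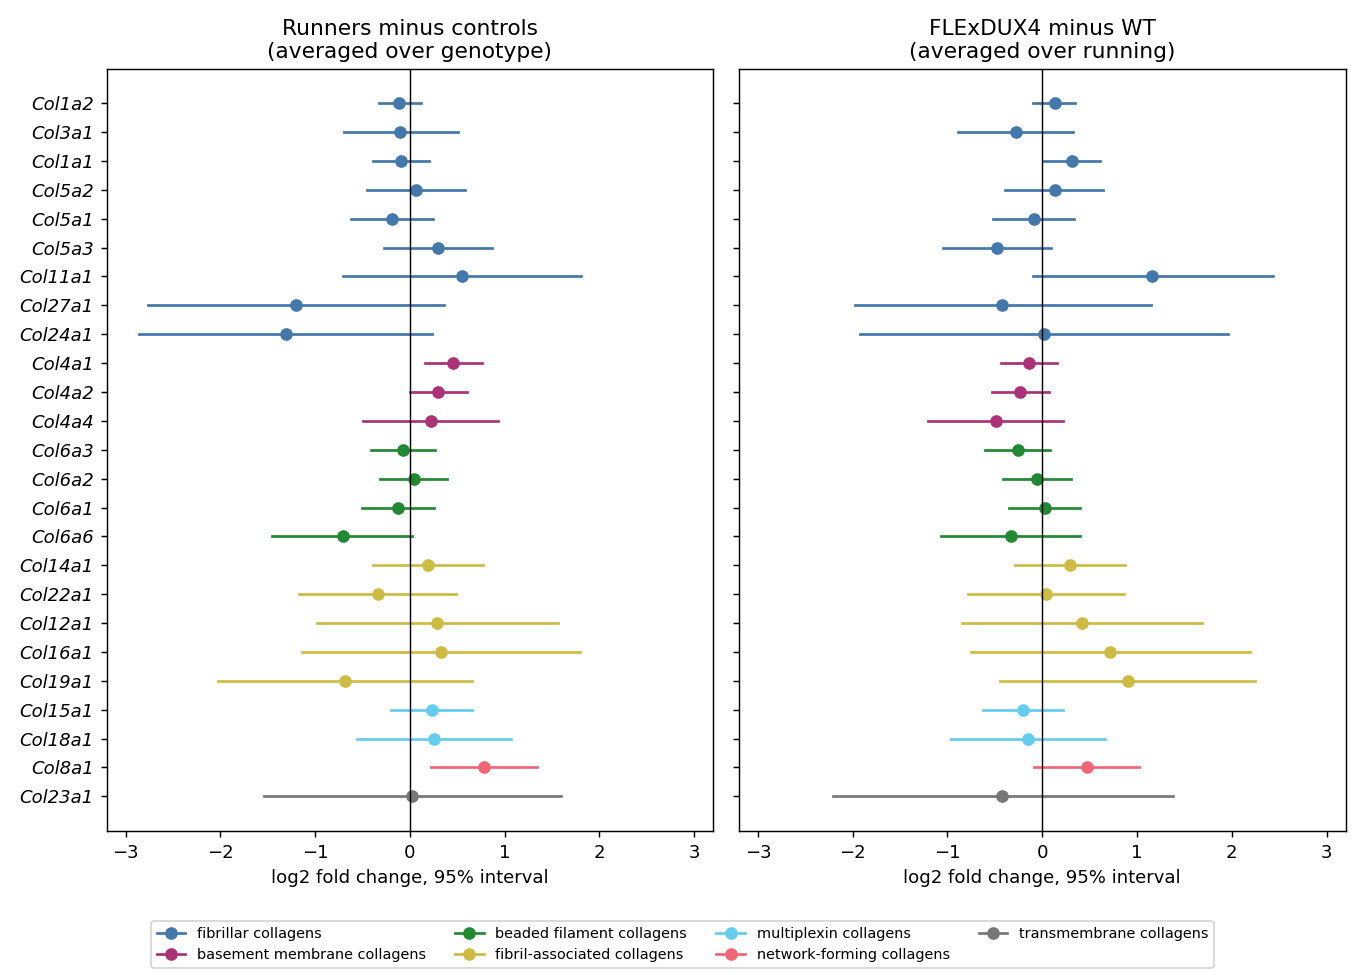
Log2 fold change (x axis) with its 95% interval for the 25 tested collagens, ordered by class, for runners minus controls averaged over genotype (left) and FLExDUX4 minus WT averaged over running (right). Col4a1 and Col8a1 lie above 0 with their whole interval on the left, the interval of Col1a1 on the right starts at 0.01, and no gene passed an adjusted p of 0.05 in either panel.

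Genotype was compared within controls, within runners and on average. In controls 0 of 25 collagens passed, with 0% of all genes passing in edgeR. At an unadjusted p under 0.05 there were 2 collagens, against 5% of all genes. DESeq2 called 0 collagens and 0.0271% of genes, and limma-voom called none of either. FLExDUX4 controls lay wholly above WT controls for Col8a1 and Col11a1, where 5.93% of all genes did so, and for no collagen wholly below, where 5.47% did. Col8a1 differed by 1.10 ± 0.43 (adjusted p = 0.969), or 0.70 without WT control 1, and Col11a1 by 2.10 ± 0.98 (adjusted p = 0.969). Col5a3 differed by -0.88 ± 0.43 (adjusted p = 0.972), which came to -0.32 without WT control 1, -0.46 without FLExDUX4 control 1 and -1.37 without FLExDUX4 control 2. These comparisons share the WT controls with the WT running comparison, so the Col8a1 values of both rest on the same 3 WT controls. The median over collagens was -0.05, with 12 of 25 higher in FLExDUX4 controls, and it turned to 0.25 with spike-in library sizes, which moved the median of all genes by 0.30.

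In runners 0 of 25 collagens passed, with 0% of all genes passing, and DESeq2 and limma-voom called 0. At an unadjusted p under 0.05 there were 2 collagens, against 3.16% of all genes. Both were type I chains, Col1a1 at a FLExDUX4 minus WT difference of 0.43 ± 0.19 and Col1a2 at 0.30 ± 0.15 (adjusted p = 0.999 for each). Col1a2 was also the only collagen whose FLExDUX4 runners lay wholly above WT runners, as 1.36% of all genes did, and no collagen lay wholly below, as 1.15% did. Without FLExDUX4 running 2 these values were 0.21 and 0.19. Col4a2 differed by -0.29 ± 0.19 and Col4a1 by -0.21 ± 0.19 (adjusted p = 0.999 for each), and with each mouse left out the latter ranged from -0.35 to 0.01, the highest without WT running 2. Col4a2 was -0.15 without FLExDUX4 running 4 and -0.18 without WT running 2. All 3 basement membrane genes were lower in FLExDUX4 runners with a median of -0.21, and 6 of 9 fibrillar genes were higher with a median of 0.11.

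Averaged over running, 0 of 25 collagens and 0% of all genes passed, and 1 collagen, against 3.77% of all genes, had an unadjusted p under 0.05. DESeq2 called 0 collagens and 0.00902% of genes, and limma-voom called none of either. That collagen was Col1a1, at 0.31 ± 0.15 with a 95% interval of 0.01 to 0.61 (adjusted p = 0.998), and it was 0.20 without FLExDUX4 running 2. Col3a1 differed by -0.28 ± 0.27 (adjusted p = 0.998) and by 0.00 without WT control 1 and -0.18 without FLExDUX4 control 3. The 95% intervals for the other abundant chains were -0.10 to 0.35 for Col1a2, -0.43 to 0.16 for Col4a1 and -0.53 to 0.07 for Col4a2. Col6a1, Col6a2 and Col6a3 had intervals of -0.35 to 0.40, -0.41 to 0.30 and -0.60 to 0.08. All 5 tested fibril-associated genes had positive values with a median of 0.42, and 0 of them passed.

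The difference of the running effects between genotypes was tested as an interaction. For it 0 of 25 collagens and 0% of all genes passed, 1 collagen had an unadjusted p under 0.05 against 4.84% of all genes, and DESeq2 and limma-voom called 0. That was Col8a1, at a FLExDUX4 minus WT running effect of -1.27 ± 0.55 (adjusted p = 0.954), or -0.87 without WT control 1. Col5a1 stood at 0.70 ± 0.43 (adjusted p = 0.962) and Col1a2 at 0.34 ± 0.22 (adjusted p = 0.976). Col5a1 was 0.44 without FLExDUX4 control 1 and Col1a2 0.12 without WT control 1. Col4a1, which had positive running effects in both genotypes, stood at -0.15 ± 0.29 with an interval of -0.74 to 0.44. It ranged from -0.32 to 0.07 with each mouse left out. That interval holds values of either sign, so it does not decide whether the running effects on Col4a1 differed between genotypes.

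The authors' deposited table holds 6 comparisons of the groups, and no collagen has an adjusted p under 0.05 in it. For WT controls minus WT runners the authors' deposited table gives Col8a1 a log2 value of -0.91 with an unadjusted p of 0.000378 and no adjusted p. Col4a5 follows in the authors' deposited table at 0.69 (p = 0.00611, no adjusted p) and then Col4a1 at -0.47 (p = 0.0125, adjusted p = 0.0891), so these type IV genes have opposite signs. For FLExDUX4 controls minus WT controls the authors' deposited table has Col4a5 at -0.66 (p = 0.0066, adjusted p = 1). The authors' Col8a1 value is smaller in size than the 1.42 of the edgeR fit, and whether the authors shrank their fold changes is not given in the sources used here, so the sizes are not compared. Of genes with an adjusted p in the authors' deposited table, 9.9% passed for WT controls and WT runners, 2.19% for FLExDUX4 runners and WT controls, 0.761% for FLExDUX4 controls and WT runners, 0.0531% for FLExDUX4 controls and runners, 0.00441% for the 2 control groups and 0.00441% for the 2 running groups. Only 7 to 43 of the collagens have an adjusted p there.

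Pairs of chains, 8 of the same collagen type and 2 of different types, were compared mouse by mouse on log2(CPM + 0.5) after each group's mean was removed, in 10 pairs, with exact permutation of mice within groups (2-sided, 14 mice, 20736 orders). Col1a1 and Col1a2 had the highest correlation, with Pearson's r = 0.88 (exact p = 0.0109, adjusted 0.102) and Spearman's rho = 0.82 (exact p = 0.0137, adjusted 0.0685). Without the 2 mice farthest from the median it was r = 0.75. Col4a1 and Col4a2 had r = 0.65 (exact p = 0.0231, adjusted 0.102) and rho = 0.64 (exact p = 0.0319, adjusted 0.094), and r = 0.47 without the 2 farthest mice. Col5a1 with Col5a3 had r = 0.70 (exact p = 0.0409, adjusted 0.102) and rho = 0.72 (exact p = 0.00468, adjusted 0.0468), with r = 0.54 without 2 mice. This was the only pair in which an adjusted value passed 0.05, in 1 of its measures. Col5a1 and Col5a2, which combine in the most common type V molecule, had r = -0.01 and rho = 0.13 (exact p = 0.979 and 0.706). Col6a1 with Col6a2 had r = 0.55 (exact p = 0.0924, adjusted 0.154) and rho = 0.62 (exact p = 0.0556, adjusted 0.111). The remaining pairs of the same type were lower. Col5a2 with Col5a3 had r = 0.44 (exact p = 0.228), Col6a1 with Col6a3 r = 0.4 (exact p = 0.292) and Col6a2 with Col6a3 r = 0.49 (exact p = 0.172). The type I gene Col1a1 and the type IV gene Col4a1 had r = 0.43 (exact p = 0.0401, adjusted 0.102), which was 0.22 without FLExDUX4 running 2 and WT control 1. Col1a1 and Col3a1, of types I and III, had r = 0.62 (exact p = 0.0687, adjusted 0.137) and rho = 0.52 (exact p = 0.139, adjusted 0.232), with r = 0.22 without the same mice. The values of a pair come from the same library and share its depth.

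**Figure D4:**
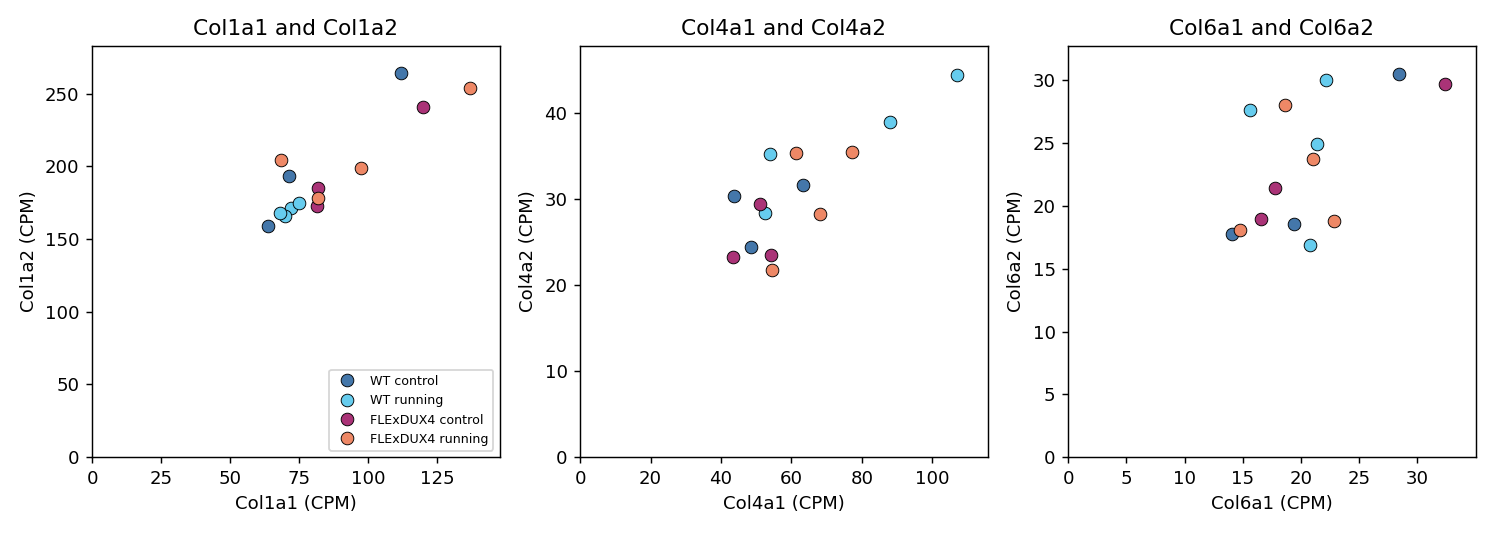
CPM of the partner chains Col1a1 and Col1a2, Col4a1 and Col4a2, and Col6a1 and Col6a2, with 1 point per mouse coloured by group and both axes starting at 0. WT control 1 and FLExDUX4 running 2 have the highest Col1a2, at 264 and 254 CPM, and the Col1a2 to Col1a1 ratio is 1.85 to 2.98 over the mice.

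The ratio of Col4a1 to Col1a1 CPM sets the basement membrane against the fibrillar chain within each mouse. It averaged 1.05 ± 0.33 (SD, n = 4) in WT runners, with a range of 0.748 to 1.43, and 0.642 ± 0.0662 (n = 3) in WT controls, with a range of 0.566 to 0.684. The WT groups did not overlap. In FLExDUX4 mice it averaged 0.702 ± 0.1 (n = 4) in runners, at 0.565 to 0.8, and 0.551 ± 0.165 (n = 3) in controls, at 0.362 to 0.666, which overlapped. The ratio was chosen with these values known and is a description.

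Collagen chains need a set of enzymes and chaperones in the endoplasmic reticulum, and later proteases and crosslinkers. Of 14 tested folding and modification genes, 0 passed the test in any of the 7 comparisons by edgeR. Over all tested genes 0.496% passed for running in WT, 0.857% for running on average and 0% in the other comparisons. With these shares, 0 calls in a short list say little about its genes, here and in the pathway and marker lists that follow. Mia3, a protein that helps to load bulky collagen for export, had the smallest p for running on average, at -0.35 ± 0.12 (adjusted p = 0.166). Plod2, a lysyl hydroxylase, followed at -0.94 ± 0.47 (adjusted p = 0.427). Over the whole list 8 of 14 genes were higher for running on average, with a median of 0.03 and a range of -0.94 to 0.36. For running in FLExDUX4 mice 8 were higher, and 3 had an unadjusted p under 0.05, against 6.66% of all genes. For running in WT 6 were higher, and 0 had an unadjusted p under 0.05, against 10.7% of all genes. The list's summed level was 394 ± 22.5 CPM in WT controls and 375 ± 33.1 in WT runners. For the genotype in controls, Fkbp14, a prolyl isomerase, stood at -1.03 ± 0.54 (adjusted p = 0.972).

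Of 8 tested processing and crosslinking genes, 0 passed. Adamts2, which removes the N-propeptide of fibrillar procollagens, stood at -0.70 ± 0.29 for running on average (adjusted p = 0.282), and Lox, which crosslinks the fibres, at 0.66 ± 0.37 (adjusted p = 0.497). Of 6 receptors and uptake genes 0 passed. Itga1, a subunit of a receptor for type IV collagen, stood at 0.60 ± 0.23 in WT runners minus controls (adjusted p = 0.296). Of 10 basement membrane partners 0 passed, with Nid1, which bridges laminin and type IV collagen, at 0.37 ± 0.16 for running on average (adjusted p = 0.296) and Lamb2, a laminin chain, at -0.27 ± 0.13 (adjusted p = 0.42). The median for running on average over these partners was 0.02, with a range of -0.27 to 0.76. Over the 3 tested basement membrane collagens it was 0.3, with a range of 0.22 to 0.46.

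Of 17 tested genes of profibrotic signalling, which act in or report the TGF-beta pathway, 0 passed. Ltbp4, which binds latent TGF-beta, stood at 0.80 ± 0.24 for genotype in controls (adjusted p = 0.969) and at 0.73 ± 0.23 for running in WT (adjusted p = 0.143). Ctgf, a matricellular target of TGF-beta, stood at 1.11 ± 0.43 for genotype in controls (adjusted p = 0.969) and Skil, a feedback inhibitor, at 1.08 ± 0.34 for running in FLExDUX4 mice (adjusted p = 0.6). At an unadjusted p under 0.05 there were 4 of these 17 genes for genotype in controls, where 5% of all genes were. There were 3 for genotype on average (3.77% of all genes), 2 for the interaction (4.84%) and 0 for genotype in runners (3.16%). Running gave 2 in WT (10.7% of all genes), 1 in FLExDUX4 mice (6.66%) and 2 on average (12%). For genotype in controls 8 of the 17 were higher in FLExDUX4 mice. Their median log2 difference was -0.05, with a range of -1.99 to 2.79.

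Marker genes of the cells that could supply collagen were set beside these results. The 12 fibroblast and fibro-adipogenic markers summed to 1100 to 1470 CPM in WT controls, 1110 to 1450 in WT runners, 1160 to 1510 in FLExDUX4 controls and 1270 to 1550 in FLExDUX4 runners, so the groups overlapped, and 0 of 12 passed the test in any comparison. The 11 endothelial markers, of which 10 were tested, summed to 181 to 187 CPM in WT controls and 257 to 377 in WT runners, which did not overlap. All 10 were higher in WT runners, with a median of 0.90, where 51.3% of all genes were higher, and 1 of them, Kdr, passed the test, as did 0.496% of all genes. The endothelial markers summed to 232 to 262 CPM in FLExDUX4 controls and 175 to 298 in FLExDUX4 runners. WT running 1 had the highest endothelial sum, 377 CPM, and the second highest Col4a1, while WT running 4 had 308 CPM and a Col4a1 of 54 CPM. The 9 smooth muscle and pericyte markers summed to 292 to 321 CPM in WT controls and 341 to 404 in WT runners, and 1, Rgs5, passed. Kdr and Rgs5 are named because they passed, after their values were seen. Schwann cell markers summed to 30.9 to 39.4 CPM in WT controls and 47.3 to 70.4 in WT runners, with 5 of 5 tested higher. Of these, 3 had an unadjusted p under 0.05, against 10.7% of all genes, and 0 were called. Mitochondrial genes took 20.9% to 26.4% of gene counts in WT controls and 27% to 36.6% in WT runners, which did not overlap either. No marker of these lists was at 0. The part of endothelial, pericyte or Schwann cells, or of the mitochondrial share, in the Col4a1, Col4a2 and Col8a1 values was not tested.

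For genotype, the tendon markers stood beside Col11a1 and Col1a1. The 9 markers summed to 51 to 93 CPM in WT controls and 107 to 217 in FLExDUX4 controls, and 56.8 to 157 in WT runners and 82.4 to 195 in FLExDUX4 runners. In controls 6 of 7 tested were higher in FLExDUX4 mice, with a median of 1.15, where 50.3% of all genes were higher. Of the 7, 6 had an unadjusted p under 0.05, against 5% of all genes, and 0 passed the adjusted test. In runners all 7 were higher in FLExDUX4 mice, with a median of 0.53, where 48.8% of all genes were higher. There 1 of the 7 had an unadjusted p under 0.05, against 3.16% of all genes. Col1a1 differed by 0.19 ± 0.22 in controls and 0.43 ± 0.19 in runners, and Col11a1 by 2.1 ± 0.98 and 0.23 ± 0.78. Of the 9 tested fibrillar genes 4 were higher in FLExDUX4 controls and 6 in FLExDUX4 runners. Col3a1 differed by -0.68 ± 0.42 in controls and 0.11 ± 0.36 in runners. Col22a1 of the myotendinous junction differed by -0.54 ± 0.61 in controls and 0.62 ± 0.55 in runners. Beside Col8a1, all 10 tested endothelial markers were higher in FLExDUX4 controls, with a median of 0.56, 2 at an unadjusted p under 0.05 and 0 called, and their sums of 232 to 262 and 181 to 187 CPM did not overlap. Other collagens of vessel walls did not share that direction. Col4a1 differed by -0.06 ± 0.22, Col4a2 by -0.18 ± 0.23, Col15a1 by -0.52 ± 0.32 and Col18a1 by -0.41 ± 0.62 in controls. Of the 3 tested basement membrane genes 0 were higher in FLExDUX4 controls. Slow muscle fibre markers summed to 23.5 to 40.2 CPM in WT controls and 157 to 432 in FLExDUX4 controls. They summed to 56.8 to 599 in WT runners and 36.9 to 785 in FLExDUX4 runners. Fast markers summed to 150000 to 156000 CPM in WT controls, above all mice of the other groups. The fast sums were 132000 to 145000 in FLExDUX4 controls, 92500 to 137000 in WT runners and 98600 to 137000 in FLExDUX4 runners. The part of tendon, endothelial cells or slow or fast muscle in the collagen values was not tested.

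**Figure D5:**
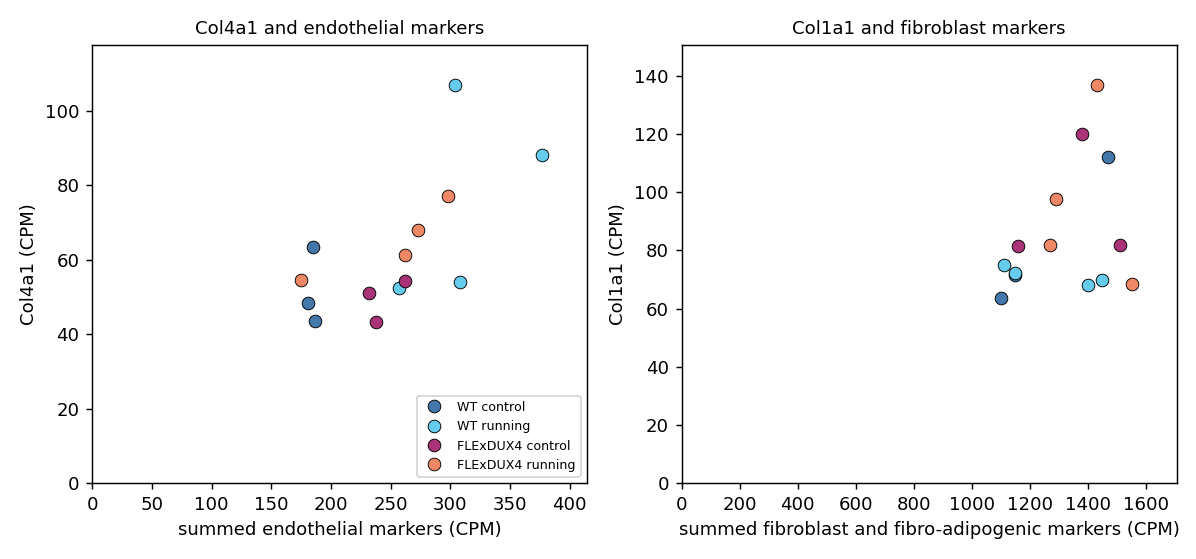
Col4a1 CPM against the summed CPM of 11 endothelial markers (left) and Col1a1 CPM against the summed CPM of 12 fibroblast and fibro-adipogenic markers (right), with 1 point per mouse coloured by group. The 3 WT controls sit at 181 to 187 CPM of endothelial markers and the 4 WT runners at 257 to 377.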

How the data were processed

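Raw read counts per gene and mouse were deposited by the authors in 1 table. Beside them it holds the authors' log2 fold changes, Wald scores, p-values and adjusted p-values for 6 comparisons. The deposited log2 values are the first named group minus the second. Alignment by STAR 2.5.3a, trimming by cutadapt 1.16, counting by featureCounts 1.6.2 and testing by DESeq2 are named in the submitters' processing notes, with GRCm38 and GRCh38 as builds. Which annotation release and strand setting were used, and how reads with several alignments were treated, is not given in the sources used here. From the counts, 99 spike-in rows were set aside, and edgeR 4.0.16 in R 4.3.3 was run with TMM, filterByExpr at a minimum count of 10, and a robust quasi-likelihood fit with a mean per group over 14 libraries. Mice of a group varied by a common coefficient of 0.288 beyond counting noise. CPM used TMM-scaled library sizes. Adjusted p-values cover all tested genes at 0.05, and intervals are 95%.

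Alternatives were DESeq2 1.42.0, limma-voom 3.58.1, other scalings (RLE, upper quartile, ERCC spike-ins), counts without mitochondrial genes and Gm42418, no low-count filter, an adjusted p under 0.10, a spread estimate that was not robust, a filter of 1 CPM in at least 3 mice, only the groups compared, each mouse left out, and FLExDUX4 control 1 with WT running 2 left out. The test was checked on simulated data. Counts of the 18 replicate pairs differed by a chi-square of at least 5.89 per degree of freedom, so no library looked like a repeat. Counting errors cover counting only, since the files hold no molecular identifiers. The labels name no batch.

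The collagens, classes, pathway and marker lists were chosen with earlier results of these data known. Named collagens were 12 main chains plus the 3 smallest p-values per comparison; of each pathway list, genes were named from the 2 smallest p-values per comparison. Positions come from GENCODE M21 on GRCm38, upstream sequences from RefSeq on GRCm38.p6.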

Additional observations from a re-analysis of the deposited data

Results flagged for a closer look

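In groups of 4 mice, a mouse was marked when its distance to the nearest other mouse, divided by the range of the group, was above the 95% limit of Dixon's test for 4 values. Of 56 such checks on collagen values 3 were marked, and chance gives 2.8. Col18a1 stood at 6.04 CPM in WT running 2, where the other WT runners had 2.18 to 2.84 CPM. Col5a3 stood at 12.4 CPM in FLExDUX4 running 4, where the others had 9.69 to 10.1 CPM. The collagens summed to 878 CPM in FLExDUX4 running 2, where the others had 615 to 646 CPM.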

How the results depend on the processing

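No paired analysis was possible because the labels give each mouse its own number and group but name no pairs or litters. Replicates are numbered here in the order of the sample records. In genotype in controls, running in FLExDUX4, genotype in runners, the interaction and genotype on average, 0 collagens passed under every alternative run. For running in WT, 1 collagen (Col8a1) passed at an adjusted p under 0.10 and 3 with ERCC library sizes. For running on average 2 passed with ERCC library sizes, 1 (Col4a1) with no low-count filter, and 0 to 1 with each mouse left out. All genes gave 454 calls of 11088, 291 of 20938 and, without WT running 3, where Col4a1 passed, 239 of 10976. Over all genes, running in WT gave 55 calls in edgeR, 194 in DESeq2, 23 in limma-voom and 643 with ERCC library sizes. Without mitochondrial genes and Gm42418 the collagens summed to 1070 CPM in FLExDUX4 controls, 1170 in FLExDUX4 runners, 1190 in WT controls and 1070 in WT runners. With these genes the sums were 637, 694, 704 and 636 CPM in the same order of groups. The denominator is smaller without them, and TMM scaling was computed again. The median log2 difference of all genes for running in WT was 0.01 with and without these genes.

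Of 1416 values of single genes under an alternative, 1357 kept direction and side of the threshold, 7 newly passed and 52 changed sign. The sign changes were in 23 of 58 gene and comparison pairs, none of which passed, and their cause was not tested. A value without an adjusted p was counted as not passing. DESeq2 gave an adjusted p to 11 of 25 collagens for running in WT and to 12 for running on average. ERCC library sizes turned these log2 values. Genotype in controls: Col4a1 0.24 and Col4a2 0.14. Running in WT: Col1a1 0.16 and Col1a2 0.09. Genotype on average: Col5a1 0.04 and Col6a2 0.09. Running on average: Col1a1 0.12, Col1a2 0.10, Col3a1 0.09, Col5a1 0.02, Col6a1 0.06 and Col6a3 0.14. With FLExDUX4 control 1 and WT running 2 both left out, Col4a1 was 0.02 for genotype in controls, 0.01 in runners and 0.02 on average, and Col5a2 was -0.14 for running on average.

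With each mouse left out in turn, values crossing 0 ranged as follows. Genotype in controls: Col4a1 -0.17 to 0.11. Running in FLExDUX4: Col8a1 -0.04 to 0.27. Running in WT: Col1a1 -0.36 to 0.07 and Col3a1 -0.72 to 0.08. Genotype in runners: Col4a1 -0.35 to 0.01. Interaction: Col4a1 -0.32 to 0.07 and Col4a2 -0.21 to 0.03. Genotype on average: Col5a1 -0.25 to 0.04, Col5a2 -0.09 to 0.38, Col6a1 -0.16 to 0.18, Col6a2 -0.16 to 0.09 and Col18a1 -0.29 to 0.05. Running on average: Col1a1 -0.20 to 0.05, Col3a1 -0.22 to 0.19, Col5a2 -0.07 to 0.31, Col6a1 -0.22 to 0.06, Col6a2 -0.03 to 0.19 and Col6a3 -0.19 to 0.07. Depth limits the low members most, since 1 CPM is 3.32 to 7.77 reads.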
